A study of Arabidopsis thaliana with 6 samples.

Results

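The CLAVATA-WUSCHEL genes that maintain the stem cells of the shoot and floral meristems were examined in inflorescences of the Arabidopsis thaliana quintuple mutant bpc1-2 bpc2 bpc3 bpc4 bpc6, named bpcV, and of wild type plants. The members are 10 loci chosen by their locus identifiers among the 32678 genes of the deposited tables. They are the peptide gene CLV3, the receptor genes CLV1, BAM1, BAM2, BAM3, CLV2, CRN and RPK2, and the transcription factor genes WUS and HAM1. Both genotypes were in the Col-0 background, received no treatment and grew at 20–22 °C under long days of 16 h light and 8 h dark. The bpcV plants carry mutant alleles of BPC1, BPC2, BPC3, BPC4 and BPC6, which encode BASIC PENTACYSTEINE proteins, plant transcription factors that bind GA-rich DNA. Each genotype had 3 biological replicates, each an RNA-seq library made with poly-A enrichment from inflorescence apices carrying flowers up to stage 12. The material is therefore a mixture in which meristems are a small part, and the mutations act in all tissues and throughout development.

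In the meristem, WUS, a homeodomain protein made in a small organising centre, moves into the overlying stem cells and keeps them undifferentiated. There it also activates CLV3, whose product is trimmed to a short secreted peptide. CLV1, a leucine-rich repeat receptor kinase, binds this peptide and restricts WUS, which closes a feedback loop that holds the stem cell number steady. CLV2, a receptor-like protein with no kinase domain, acts with the membrane-bound pseudokinase CRN, and RPK2 is a further receptor kinase of the same signal. BAM1, BAM2 and BAM3 are the closest relatives of CLV1 and can stand in for it. HAM1 is a GRAS-domain protein that works as a partner of WUS.

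Total expected counts, the read counts that RSEM estimates per gene, lay between 16196042 and 19951509 in the bpcV libraries and between 17777219 and 21455150 in the WT libraries. The first principal component separated the genotypes and took 56.3% of the variance, and the second, with 20.3%, set bpcV replicate 1 (37.3) apart from bpcV replicate 2 (−35.1), with the WT libraries between them (0.021 to 4.62). BPC1 had 15, 12 and 6 counts in the bpcV libraries, against 541, 383 and 414 in the WT libraries. BPC2 and BPC6 had 34 to 52 and 43 to 46 counts in bpcV libraries, against 938 to 1080 and 963 to 1135 in WT libraries. BPC4 kept 544, 584 and 679 counts in bpcV, against 1049, 880 and 961 in WT, and BPC3 had 63, 71 and 94 counts in bpcV, against 73, 66 and 43 in WT, and was not called (edgeR FDR 0.292). The 6 floral markers (LFY, AP1, AP3, PI, AG and SEP3) summed to 776 to 1011 TPM (RSEM's transcript level, corrected for length and library size) in bpcV and 786 to 795 TPM in WT, and none of the 6 was under 1 TPM in every library. The 7 meristem and boundary markers (STM, KNAT1, KNAT2, KNAT6, CUC1, CUC2 and CUC3) summed to 77.9 to 120.1 TPM in bpcV and 109.2 to 113.2 TPM in WT, and 0 of the 7 was under 1 TPM in every library.

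Among the 9 members with counts, WUS showed the largest estimated difference between the genotypes, with a lower level in bpcV. The remaining member, CLV3, had 0 counts and could not be compared. None of the 9 members that passed the filter on low counts was called at a false discovery rate (FDR) of 0.01 by edgeR's quasi-likelihood test, whereas 3.89% of the 20813 genes tested were called. At an unadjusted p under 0.05 the count was 1 of 9 (WUS), against 28.3% of all genes, and 0 members were called at an FDR of 0.01 by DESeq2, limma on log2(TPM + 1) or edgeR's likelihood ratio test, which called 7.76%, 2.81% and 10.7% of all genes in that order. Of the 9, 6 had a higher and 3 a lower estimate in bpcV than in WT, with a median log2 fold change (bpcV over WT) of 0.06 over the 9, against 0.01 over all genes tested. One of the 9, WUS, had CPM (counts scaled to library size with edgeR's TMM factors) that did not overlap between the genotypes, against 35.8% of all genes tested.

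**Figure D1:**
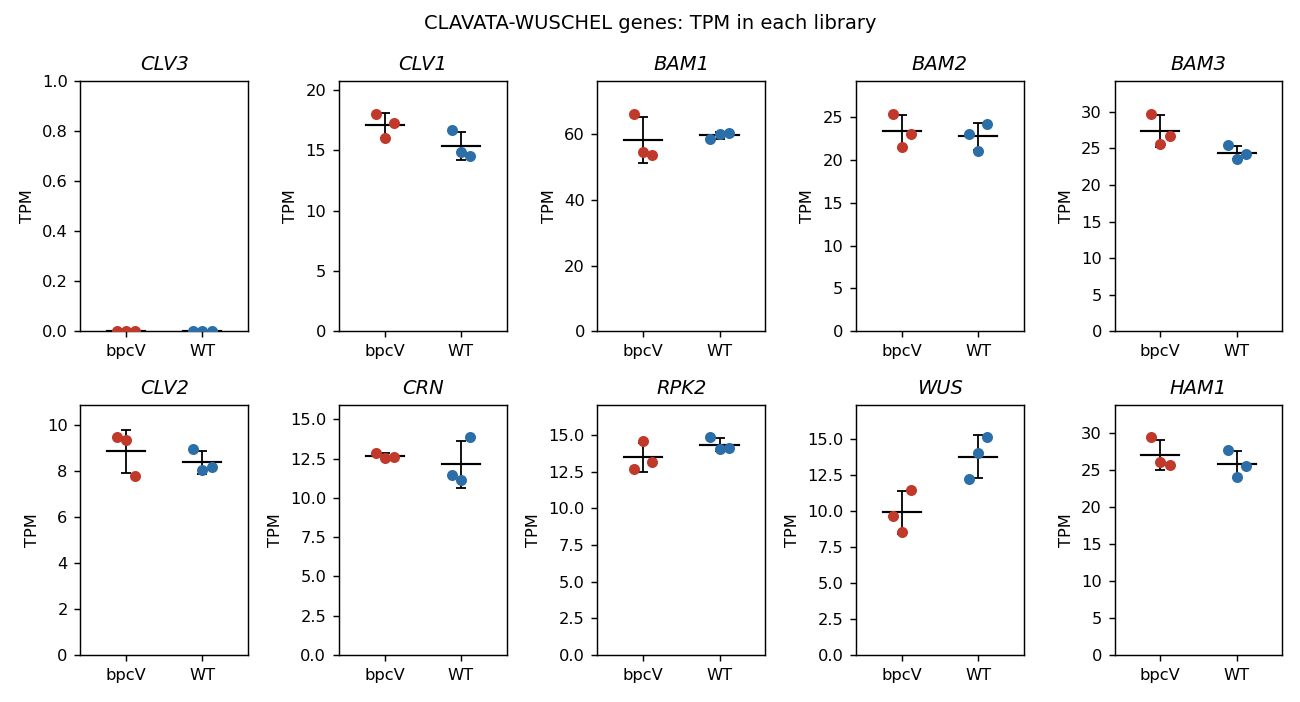
TPM of the 10 CLAVATA-WUSCHEL genes in each library, bpcV (red, left) beside WT (blue, right), with 3 libraries per genotype. Points are libraries, horizontal bars are means and vertical bars are the SD; the WUS points of bpcV (8.58 to 11.5 TPM) all lie below those of WT (12.2 to 15.1 TPM), the CLV3 points all lie at 0, the BAM3 points of bpcV (25.6 to 29.8 TPM) lie just above those of WT (23.6 to 25.4 TPM), and the points of the other 7 genes overlap.

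The levels of the members formed a similar order in both genotypes. BAM1 was the most abundant, at 58.3 ± 6.95 TPM in bpcV and 59.7 ± 1.002 TPM in WT (SD, n = 3 each), and its libraries lay above those of every other member. HAM1, BAM3 and BAM2 followed, with means of 23.4 to 27.4 TPM in bpcV and 22.8 to 25.7 TPM in WT. In WT the libraries of HAM1 overlapped those of BAM3, and those of BAM3 overlapped those of BAM2, while in bpcV only BAM3 and HAM1 overlapped among these. CLV1 came next in both genotypes, and in WT its libraries overlapped those of RPK2. Below it, RPK2, CRN and WUS had means of 9.92 to 13.5 TPM in bpcV and 12.1 to 14.3 TPM in WT, and CLV2 was the lowest member with counts, at 8.86 ± 0.93 TPM in bpcV and 8.38 ± 0.51 TPM in WT (SD, n = 3 each). In WT the WUS libraries overlapped those of RPK2 and CRN. In bpcV they lay below all libraries of CRN and overlapped those of CLV2.

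The ligand gene CLV3 (AT2G27250, TAIR10.1 chr2:11664978-11665797, minus strand, 3 exons) was listed with 0 counts in all 6 libraries, so it was not tested and no fold change can be given. The tables list 3 CLV3 transcripts, so the gene was among those RSEM could assign reads to. The 0 is a count of assigned reads, not a measured absence of the transcript, and how well reads of this gene map was not tested. A total of 3 counts, the number that a count of 0 still allows, would equal 0.41 to 0.49 TPM in the bpcV libraries and 0.39 to 0.46 TPM in the WT libraries, and this limit covers counting error only. WUS, the activator of CLV3, was measured in the same libraries at levels at least 18.9 to 28.3 times the CLV3 limit in bpcV and at least 30.4 to 33.4 times the limit in WT. Among the 1234 protein-coding genes of 600 to 700 bases in the tables, the class that holds the CLV3 transcript, 13.0% were at 0 in every library, against 8.72% of all protein-coding genes. CLE40, which encodes the nearest relative of the CLV3 peptide and is known from the root meristem, was also at 0 in all 6 libraries. Its listed length is 243 bases, and its effective length, the number of positions where a fragment can start, is 46.0, against 416.9 for CLV3. Few fragments can come from so short a transcript, so the 0 of CLE40 says little about its level. The stretch that encodes the secreted peptide is shown for both genes, because they are the ligand sequences closest to this pathway and no read was assigned to either gene. Capitals mark the 36 bases that code for the 12 residues of the peptide, 23 of which are identical between the genes (CLV3 at TAIR10.1 chr2:11665234-11665269 and CLE40 at chr5:4109258-4109293 for the capitals, both minus strand, from the RefSeq genome).
CLV3: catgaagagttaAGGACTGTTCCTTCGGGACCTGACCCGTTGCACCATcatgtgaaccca
CLE40: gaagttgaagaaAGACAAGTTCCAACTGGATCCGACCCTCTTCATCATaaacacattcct

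None of the receptor kinase genes CLV1, BAM1, BAM2 and BAM3 was called between the genotypes by edgeR's quasi-likelihood test. CLV1 (AT1G75820, chr1:28463344-28466971, minus strand, 2 exons) had 18.0, 16.0 and 17.2 TPM in the bpcV libraries, against 16.7, 14.9 and 14.5 TPM in the WT libraries. The lowest bpcV library lay below the highest WT library, and the log2 fold change was 0.14 ± 0.09 (SE; edgeR's quasi-likelihood test, FDR 0.352). BAM1 (AT5G65700, chr5:26281642-26285413, plus strand, 2 exons) had 66.4, 54.8 and 53.9 TPM in bpcV, against 58.6, 60.3 and 60.3 TPM in WT. The 3 WT libraries lay inside the range set by the bpcV libraries, of which replicate 1 was the highest (log2 fold change −0.05 ± 0.10 SE, edgeR FDR 0.802).

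BAM2 (AT3G49670, chr3:18417568-18421263, plus strand, 2 exons) had 25.4, 21.6 and 23.0 TPM in bpcV, against 23.1, 21.1 and 24.2 TPM in WT, with interleaved libraries (log2 fold change 0.02 ± 0.09 SE, edgeR FDR 0.894). BAM3 (AT4G20270, chr4:10949573-10953113, plus strand, 2 exons), a receptor known from root phloem, had 29.8, 25.6 and 26.7 TPM in bpcV, against 25.4, 23.6 and 24.3 TPM in WT. Every bpcV library was above every WT library in TPM, but not in CPM, where the lowest bpcV library (68.96) fell just below the highest WT library (69.01), and BAM3 was not called (log2 fold change 0.15 ± 0.08 SE, edgeR FDR 0.284).

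The libraries of the remaining receptor components overlapped between the genotypes. CLV2 (AT1G65380, chr1:24286742-24289329, plus strand, 1 exon) had 9.46, 9.33 and 7.79 TPM in bpcV, against 8.96, 8.02 and 8.15 TPM in WT. Its lowest and highest values were both in bpcV libraries (log2 fold change 0.07 ± 0.11 SE, edgeR FDR 0.717). CRN (AT5G13290, chr5:4252842-4255378, minus strand, 2 exons), whose product carries CLV2 to the plasma membrane, had 12.9, 12.5 and 12.6 TPM in bpcV, against 11.4, 11.1 and 13.9 TPM in WT. The bpcV libraries lay within the WT range (log2 fold change 0.06 ± 0.11 SE, edgeR FDR 0.757). RPK2 (AT3G02130, chr3:380350-384582, plus strand, 1 exon) had 12.7, 14.6 and 13.2 TPM in bpcV, against 14.9, 14.1 and 14.1 TPM in WT, and bpcV replicate 2 lay inside the WT range (log2 fold change −0.10 ± 0.09 SE, edgeR FDR 0.498).

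Although none of the 7 receptor genes was called, each has a 95% interval that bounds its difference. Over the 7 genes they reached from −0.30 (RPK2) to 0.35 (CLV1 and BAM3) on the log2 scale, that is from 0.81-fold to 1.27-fold (BAM3) and 1.275-fold (CLV1). The sum of CLV1, BAM1, BAM2 and BAM3 was 139.6, 118 and 120.9 TPM in bpcV, against 123.8, 119.8 and 123.4 TPM in WT, with the highest and the lowest values in bpcV. CLV1 amounted to 0.148, 0.157 and 0.166 of the summed BAM1, BAM2 and BAM3 TPM in bpcV, against 0.156, 0.142 and 0.134 in WT. The ranges overlapped and the difference of 0.13 on the log2 scale did not pass a two-sided exact permutation test (p = 0.2, with 0.1 the smallest p that 3 against 3 libraries allow). CRN amounted to 1.36, 1.34 and 1.62 times CLV2 in TPM in bpcV, against 1.28, 1.39 and 1.70 times in WT, a ratio that was not tested.

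**Figure D2:**
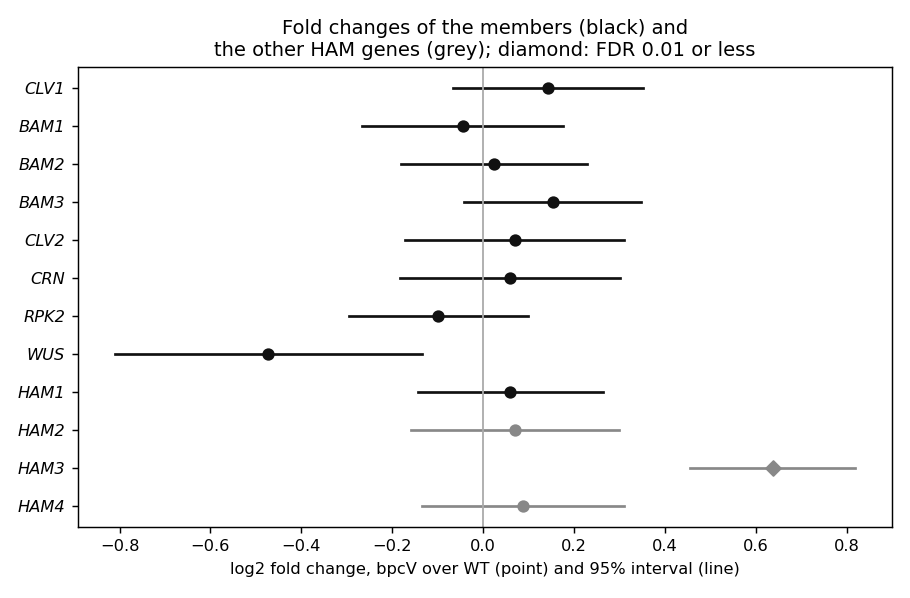
Log2 fold change (bpcV over WT, horizontal axis) of the 9 tested members (black) and of HAM2, HAM3 and HAM4 (grey), with lines for the 95% interval from edgeR's quasi-likelihood fit. The intervals of the 7 receptor genes and of HAM1 all span 0, that of WUS reaches from −0.81 to −0.14, and HAM3 (diamond, FDR 0.01 or less) lies at 0.64.

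Because CLV1 and the BAM genes are relatives, reads could in principle be shared between them. The coding sequences of BAM1 and BAM2 were identical at 81.7% of 2980 aligned bases, with a longest shared exact run of 41 bases, and the other pairs among CLV1 and the BAM genes were identical at 64.9% to 66.7% of aligned bases, with runs of 17 to 29 bases. The expected counts of all members were whole numbers in all 6 libraries, so no fraction of a read was assigned to them in the tables. CRN overlaps AK-LYS1 over 423 bases on the opposite strand, and AK-LYS1 had 608, 641 and 778 counts in bpcV, against 766, 644 and 703 in WT. Whether the libraries keep the strand is not given in the sources used here, so CRN values may hold reads of this neighbour. The same holds for AT5G13295, a protein-coding gene that overlaps CRN over 369 bases on the opposite strand. This gene is absent from the deposited tables, so it has no counts to set beside those of CRN. BAM2 overlaps the long non-coding gene AT3G49668 over 757 bases on the opposite strand, and AT3G49668 had 0 counts in every library.

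WUS (AT2G17950, chr2:7808871-7810811, minus strand, 3 exons) had 143, 136 and 206 counts in the bpcV libraries, against 230, 222 and 244 counts in the WT libraries. Corrected for length and depth this gave 9.68, 8.58 and 11.5 TPM in bpcV, against 12.2, 14.0 and 15.1 TPM in WT. All 3 bpcV libraries lay below all 3 WT libraries, and the gap between the nearest pair (bpcV replicate 3 and WT replicate 1) was small beside the spread within each genotype. The means were 9.92 ± 1.48 TPM in bpcV and 13.8 ± 1.46 TPM in WT (SD, n = 3 each). The estimated ratio was 0.72 (95% interval 0.57 to 0.91), a log2 fold change of −0.47 ± 0.15 (SE), which did not pass the FDR threshold of 0.01 (edgeR's quasi-likelihood test, unadjusted p = 0.0118, FDR 0.0751). Of all genes tested, 17.7% had a larger absolute log2 fold change than WUS. Over the 20 alternatives tried, the WUS estimate stayed negative, between −0.60 (without bpcV replicate 3) and −0.37 (without bpcV replicate 2), and the FDR lay between 0.0338 (edgeR's likelihood ratio test) and 0.242 (without WT replicate 3).

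**Figure D3:**
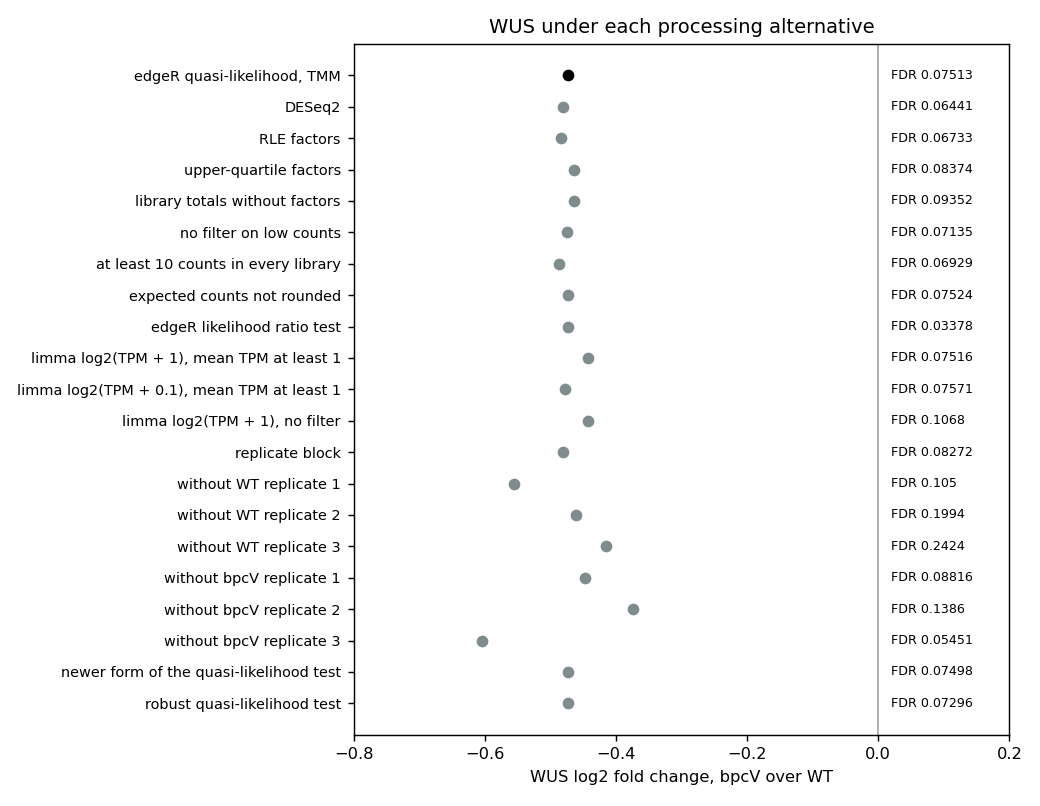
WUS log2 fold change (bpcV over WT, horizontal axis) under the edgeR quasi-likelihood fit with TMM factors (black) and under 20 alternatives (grey), with the FDR of each beside the point. Every estimate lies between −0.60 and −0.37 and no FDR reaches 0.01; the lowest is 0.0338.

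In whole inflorescence apices, fewer WUS-expressing cells and less WUS RNA per cell cannot be told apart. WUS was therefore set beside the other meristem transcripts of the same libraries. Of the 7 meristem and boundary markers edgeR called 0 at an FDR of 0.01, against 3.89% of all genes tested. It gave an unadjusted p below 0.05 for 1 of them, against 28.3% of all genes tested. The median log2 fold change of the 7 was −0.06, with summed levels that overlapped as given above. WUS amounted to 0.176, 0.244 and 0.259 of the TPM of STM, the homeobox gene that keeps meristem cells undifferentiated, in bpcV, against 0.265, 0.295 and 0.330 in WT. This ratio was lower in every bpcV library than in every WT library, but by little between bpcV replicate 3 and WT replicate 1. STM was the 1 marker of the 7 for which the WUS ratio did not overlap between the genotypes, and for the other 6 it did. The marker with the low p was KNAT6, a KNOX homeobox gene of the meristem and boundary, which had 12.4, 10.9 and 13.8 TPM in bpcV, against 17.4, 17.9 and 14.1 TPM in WT (log2 fold change −0.42 ± 0.14 SE, edgeR FDR 0.0959). WUS amounted to 0.783, 0.784 and 0.832 of the TPM of KNAT6 in bpcV, against 0.703, 0.785 and 1.07 in WT, with the bpcV libraries inside the WT range. None of these ratios was tested. The 5 markers of dividing cells summed to 154.5 to 197.5 TPM in bpcV and 185.2 to 203.2 TPM in WT, the 5 tapetum markers to 38.0 to 77.4 TPM in bpcV and 60.8 to 136.6 TPM in WT, of which DYT1 was under 1 TPM in every library, and the 4 late pollen markers to 2384 to 3049 TPM in bpcV and 2577 to 2818 TPM in WT. Single markers moved within these overlapping sums, although edgeR called 0 of them at an FDR of 0.01, against 3.89% of all genes tested. The CPM of 1 marker in each of these lists did not overlap, against 35.8% of all genes tested. These were CDKB2-2, AMS and PPME1, each lower in bpcV, and AMS differed most (log2 fold change −1.24 ± 0.31 SE, edgeR FDR 0.0358). Of the 6 floral markers, AP1, AP3 and AG had CPM above WT in every bpcV library. The part of these shifts in the WUS level was not tested.

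Since BPC proteins bind GA repeats, the 250 bases before the annotated gene start of each member were searched for GAGAGA on both strands (TCTCTC on the gene's strand, counted apart). WUS had 1 match, as TCTCTC beginning 25 bases before the start, and CLV1 had 1, as GAGAGA beginning 112 bases before the start. The other 8 members had none in this window, and neither had HAM3. Of the protein-coding genes tested, 19.9% held at least 1 match in the same window, and of all protein-coding genes on the 5 chromosomes 20.6%. The WUS region is shown because WUS had the largest difference among the members, and the HAM3 region because HAM3 was the one gene of the wider pathway that was called, with capitals for the match (RefSeq, TAIR10.1, chr2:7810812-7811061 and chr4:59496-59745, both minus strand). A match is a match of letters and was not tested as a binding site.
WUS: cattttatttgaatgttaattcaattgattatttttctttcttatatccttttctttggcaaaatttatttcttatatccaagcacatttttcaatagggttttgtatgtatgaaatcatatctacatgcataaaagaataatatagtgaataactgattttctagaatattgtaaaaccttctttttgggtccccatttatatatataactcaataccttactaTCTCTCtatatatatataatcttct
HAM3: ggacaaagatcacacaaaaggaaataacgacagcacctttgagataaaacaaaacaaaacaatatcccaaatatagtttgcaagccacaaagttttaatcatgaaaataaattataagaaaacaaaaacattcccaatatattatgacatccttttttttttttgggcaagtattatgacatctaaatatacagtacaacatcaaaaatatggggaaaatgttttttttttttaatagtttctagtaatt

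HAM1, the WUS partner among the members, did not separate the genotypes, whereas its relative HAM3 was higher in bpcV. HAM1 (AT2G45160, chr2:18617862-18620451, minus strand, 1 exon) had 29.4, 26 and 25.6 TPM in the bpcV libraries, against 27.7, 24.0 and 25.6 TPM in the WT libraries. The highest value was in bpcV replicate 1 and the lowest in WT replicate 2, with the others interleaved (log2 fold change 0.06 ± 0.09 SE, 95% interval −0.14 to 0.26, edgeR FDR 0.712). HAM3 (AT4G00150, chr4:57140-59495, minus strand), which encodes a GRAS protein of the same group, had 17.5, 17.7 and 16.6 TPM in bpcV, against 10.8, 10.9 and 11.4 TPM in WT. The libraries did not overlap, and the gap between the genotypes was many times the spread within each. HAM3 rose 1.56-fold in bpcV (95% interval 1.37 to 1.76), a log2 fold change of 0.64 ± 0.08 (SE, edgeR's quasi-likelihood test, FDR 0.00254). The call was lost in 6 of 20 alternatives: the FDR was 0.0197, 0.0212 and 0.0189 without WT replicates 1, 2 and 3, 0.0121 without bpcV replicate 3, 0.0137 with the replicate number as a block and 0.0112 with limma without a filter. It held without bpcV replicate 1 (FDR 0.00159) and without bpcV replicate 2 (FDR 0.00518), and the log2 fold change stayed between 0.60 and 0.66 in all 20 alternatives.

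HAM2 (AT3G60630) had 25.2, 19.8 and 21.8 TPM in bpcV, against 21.7, 20.3 and 21.3 TPM in WT, with the WT libraries inside the bpcV range (edgeR FDR 0.700). HAM4 (AT4G36710) had 14.0, 16.4 and 15.2 TPM in bpcV, against 14.1, 14.7 and 13.9 TPM in WT, with interleaved libraries (edgeR FDR 0.607). Together the 4 HAM genes summed to 86.1, 79.8 and 79.3 TPM in bpcV, against 74.3, 69.9 and 72.2 TPM in WT, sums that did not overlap and were not tested. The sums include HAM3, the only 1 of the 4 whose libraries did not overlap, so their separation is no sign of a rise across the family. HAM3 amounted to 0.595, 0.679 and 0.649 of HAM1 in bpcV, against 0.391, 0.452 and 0.446 in WT, whereas WUS amounted to 0.329, 0.330 and 0.449 of HAM1 in bpcV, against 0.442, 0.585 and 0.593 in WT. The WUS to HAM1 ratios overlapped between the genotypes, since bpcV replicate 3 lay above WT replicate 1, whereas the HAM3 to HAM1 ratios did not overlap, and neither ratio was tested.

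**Figure D4:**
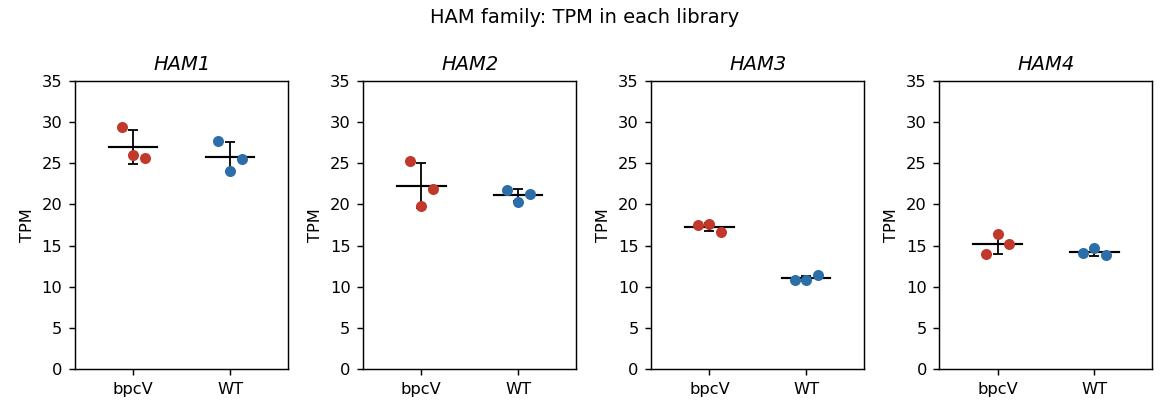
TPM of HAM1, HAM2, HAM3 and HAM4 in each library, bpcV (red, left) beside WT (blue, right), with 3 libraries per genotype, horizontal bars for means and vertical bars for the SD. HAM3 lies at 16.6 to 17.7 TPM in bpcV and at 10.8 to 11.4 TPM in WT, and the libraries of HAM1, HAM2 and HAM4 overlap.

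HAM1, HAM2 and HAM3 are known targets of the microRNA miR171, which guides cleavage of their transcripts. The site is shown because the called gene and its uncalled relatives share it: 1 stretch fully complementary to miR171a was found in the coding sequence of each of HAM1, HAM2 and HAM3, and none in that of HAM4. The mature miR171a has its seed, bases 2 to 8, in capitals (RefSeq, TAIR10.1 chr3:19073521-19073541, plus strand), and in the 30 bases of each transcript the capitals mark the 21 complementary bases (chr2:18619128-18619148, chr3:22411544-22411564 and chr4:58411-58431 for HAM1, HAM2 and HAM3, all minus strand). The 21 complementary bases begin at coding base 885 of 1923 in HAM1, 804 of 1872 in HAM2 and 675 of 1677 in HAM3, and the coding sequence of HAM3 was identical to that of HAM1 at 68.5% of aligned bases. Small RNAs were not measured in these poly-A libraries.
miR171a: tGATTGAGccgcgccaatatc
HAM1: caaggGATATTGGCGCGGCTCAATCAccat
HAM2: caaggGATATTGGCGCGGCTCAATCAcaac
HAM3: cagggGATATTGGCGCGGCTCAATCAacag

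Among 71 further genes of the pathway, 46 passed the filter on low counts, 1 was called higher in bpcV (HAM3) and 0 were called lower, against 1.66% called higher and 2.23% called lower among all genes tested. At an unadjusted p under 0.05 edgeR gave 15 of the 46, against 28.3% of all genes tested. At an FDR of 0.01 DESeq2 called 3, against 7.76% of all genes, and edgeR's likelihood ratio test called 6, against 10.7%. The median log2 fold change of the 46 was −0.00049, against 0.01 over all genes tested, with 23 estimates above and 23 below 0. In 15 of the 46 the CPM did not overlap between the genotypes, against 35.8% of all genes tested.

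Of 13 other WOX genes, the homeobox family of WUS, 6 were tested and 0 called by edgeR's quasi-likelihood test. An unadjusted p under 0.05 was found for 2 of the 6, against 28.3% of all genes tested. In 2 of the 6 the CPM did not overlap between the genotypes, against 35.8% of all genes tested. Of the 6 estimates 2 were higher and 4 lower in bpcV. WOX13, the member with the lowest p and a widely expressed one, had 32.1, 33.5 and 33.4 TPM in bpcV, against 45.6, 41.4 and 42.1 TPM in WT. The libraries did not overlap, and the log2 fold change was −0.39 ± 0.08 (SE; edgeR FDR 0.0195), which passed an FDR of 0.01 with DESeq2 (0.00805) and with edgeR's likelihood ratio test (0.00432). Of 30 CLE peptide genes other than CLV3, 13 were tested, 0 were called by edgeR's quasi-likelihood test, and 8 had 0 counts in all libraries. These 8 are short, with listed lengths of 225 to 582 bases and effective lengths of 34.1 to 361 bases. For the shortest of them the 0 says little about their level. CLE11 (361) and CLE4 (333) had effective lengths nearer to that of CLV3 (416.9), so length limits their counts less. Their 0, like that of CLV3, is a count of assigned reads. Of the 13 tested, 4 estimates were higher and 9 lower in bpcV. The CPM of 5 of them did not overlap between the genotypes, against 35.8% of all genes tested. CLE10, with the lowest p, had 3, 4 and 2 counts in bpcV, against 14, 10 and 14 in WT, counts that did not overlap (log2 fold change −1.97 ± 0.44 SE, FDR 0.0240 in edgeR's quasi-likelihood test and 0.00141 in its likelihood ratio test). CLE10 passed the filter of 10 counts through the WT libraries alone, and it was left out where 10 counts were required in every library. CLE19 (10, 6 and 6 counts in bpcV, 21, 14 and 18 in WT) and CLE26 (16, 9 and 7, against 16, 16 and 20) reached 10 counts in every library of WT only. CLE43 (12, 20 and 17, against 14, 7 and 9) and CLE27 (16, 20 and 24, against 28, 7 and 16) did so in bpcV only. Whether such genes were tested rested largely on 1 genotype, so the directions and overlaps counted among the 13 are no evidence on the CLE genes.

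Of 5 other receptor kinase genes, all were tested and 0 called by edgeR's quasi-likelihood test. An unadjusted p under 0.05 was found for 4 of the 5, against 28.3% of all genes tested. In 3 of the 5 the CPM did not overlap between the genotypes, against 35.8% of all genes tested. Both directions occurred, with 3 estimates higher and 2 lower in bpcV, between −0.49 (RPK1) and 0.60 (AT5G45780) on the log2 scale. These shares leave out NIK3 and SARK, receptor kinase loci dropped from this group only because the annotation names them otherwise. In edgeR's quasi-likelihood test their unadjusted p was 0.165 and 0.411, both above 0.05. The CPM of NIK3 did not overlap, higher in bpcV, and that of SARK did. RPK1, the close relative of RPK2, had 9.67, 8.89 and 8.56 TPM in bpcV, against 12.4, 13.6 and 12.0 TPM in WT, without overlap (log2 fold change −0.49 ± 0.10 SE, edgeR FDR 0.0176), and it passed an FDR of 0.01 with DESeq2 (0.00662) and with edgeR's likelihood ratio test (0.0012). RPK2 itself differed by −0.10, as given above, and whether the relatives differ from each other was not tested. Of 5 intracellular signalling genes 0 were called by edgeR's quasi-likelihood test, with 2 at an unadjusted p under 0.05, against 28.3% of all genes tested. The CPM of 1 of the 5 did not overlap, against 35.8% of all genes tested, and 3 estimates were higher and 2 lower in bpcV. AGB1, the G protein beta subunit, had 44.5, 49.5 and 47.0 TPM in bpcV, against 56.7, 52.6 and 58.5 TPM in WT, without overlap (log2 fold change −0.26 ± 0.08 SE, edgeR FDR 0.0826).

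Of 15 regulators of WUS or CLV3, 14 were tested and 0 called by edgeR's quasi-likelihood test. An unadjusted p under 0.05 was found for 4 of the 14, against 28.3% of all genes tested. Among these 4 only ULT2 was lower in bpcV, and the others (FAS2, BARD1 and TSO1) were higher. Over the 14, 8 estimates were higher and 6 lower in bpcV. ULT2, a SAND-domain gene related to ULT1, which limits WUS in floral meristems, had 7, 21 and 24 counts in bpcV, against 38, 36 and 41 in WT. The 3 bpcV libraries were lower, most of all replicate 1. ULT2 too was left out where 10 counts were required in every library, and the difference did not pass the threshold (log2 fold change −1.09 ± 0.35 SE, edgeR FDR 0.0844).

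**Figure D5:**
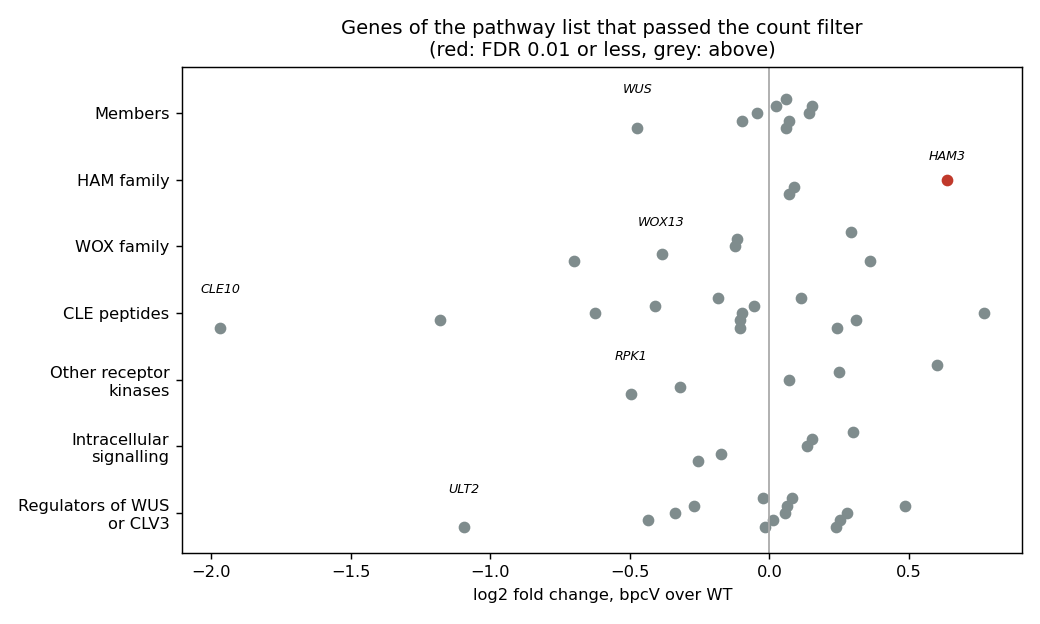
Log2 fold change (bpcV over WT, horizontal axis) of the 9 tested members and of the 46 tested genes of the pathway list, grouped by role in rows (the height within a row only separates points). HAM3 at 0.64 is the one gene called at an FDR of 0.01 (red); CLE10 at −1.97 lies farthest from 0, on 2 to 14 counts per library.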

How the data were processed

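RNA was extracted with the NucleoSpin RNA Plant kit and sequenced paired-end on the HiSeq platform in 6 libraries, 3 per genotype. The authors mapped them with bowtie2 against TAIR10 transcripts and estimated gene levels with RSEM, and their deposited tables give expected counts and TPM per gene and library. A further deposited table of the authors' own comparison was not used. Versions are not given in the sources used here. Here, expected counts were rounded, genes were kept by edgeR's filterByExpr (10 counts in enough libraries, 15 in all) and tested with edgeR 4.0.16 (TMM factors, glmQLFTest, genotype only), with Benjamini-Hochberg adjustment over the 20813 genes tested and an FDR threshold of 0.01 as in the study. The study reports many more genes at this threshold than the 809 called here, so its calls were not reproduced in number, and the reason was not tested. Log2 fold changes are bpcV over WT, and intervals are 95% intervals of the fit. Alternatives used DESeq2 1.42.0, limma 3.58.1 on log2(TPM + 1), other factors and filters, and each library left out. Only the edgeR quasi-likelihood fit was run on simulated counts, drawn with its own fitted dispersions. That run checked the code and is no support for any call. Library totals of 16196042 to 21455150 expected counts set the precision of low genes. P-values weigh the difference between the genotypes against the spread between these biological replicates.

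The members and the gene lists were chosen with earlier results of these data known. All 10 members are named. From the pathway list, genes with an FDR of 0.01 or less are named, and in each role the gene with the smallest p among the others. HAM2, OBE1, KNU, FAS2, BARD1, TSO1 and AT5G45780 were added after their values were seen, and CLE40 for its sequence. NIK3 and SARK were left out of the list, because the annotation names them otherwise than the list did. Positions and sequences came from the RefSeq genome TAIR10.1, matched by locus identifier.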

Additional observations from a re-analysis of the deposited data

How the results depend on the processing

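No member was called at an FDR of 0.01 under any alternative, including 2 settings chosen after seeing the data (quasi-likelihood fits in edgeR's newer form and with robust estimation). The small BAM1 and BAM2 estimates changed sign: BAM1 lay between −0.14 and 0.002448 over the alternatives (0.002448 without bpcV replicate 2, 0.0007298 without bpcV replicate 3) and BAM2 between −0.03446 (without bpcV replicate 1; −0.03014 without WT replicate 2) and 0.08147 (without bpcV replicate 2). The pathway genes called, 1 (HAM3) in the quasi-likelihood fit, were 3 with DESeq2, 6 with the likelihood ratio test, 6 at an FDR of 0.05, 0 with limma on log2(TPM + 1) without a filter, and 0 to 2 with a library left out (0 without any of the WT replicates 1, 2 and 3 or without bpcV replicate 3, 2 without bpcV replicate 1). Without a filter in limma the FDR of HAM3 was 0.0112. With the replicate number as a block the count was 0 (HAM3 FDR 0.0137). Same-numbered libraries did not deviate together (correlations −0.0193, −0.0129 and 0.177), so the numbers were not taken as pairs, and the block moved no member's call. The calls over all genes, 809, were 1782 with DESeq2, 2233 with the likelihood ratio test, 2506 at an FDR of 0.05, 532 with limma at a pseudocount of 0.1, 353 with limma without a filter, 408 with the block, and 167 (without WT replicate 2) to 1249 (without bpcV replicate 1) with a library left out. The CLV1 to BAM ratio kept its direction in all alternatives (0.0806 to 0.190 with a library left out). The causes of these shifts were not tested. The WUS to CLV3 ratio could not be computed, since CLV3 had 0 counts. CLE10 and ULT2, with 2 to 24 counts in bpcV libraries, had no value where 10 counts were required in every library.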

Other observations

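Genes named here were chosen after their values were seen. OBE1, a PHD-finger gene among the listed regulators of WUS or CLV3, had 19.8, 51.6 and 47.1 TPM in bpcV, against 56.7, 52.3 and 51.0 TPM in WT. bpcV replicate 1 was far below the other 5 libraries, bpcV replicate 2 lay inside the WT range, and the difference did not pass the test (log2 fold change −0.44 ± 0.30 SE, edgeR FDR 0.386). OBE2, of the same list, had 41.7, 62.4 and 60.9 TPM in bpcV, against 73.0, 68.7 and 66.3 TPM in WT. Its CPM did not overlap, as in 35.8% of all genes tested, and bpcV replicate 1 was again the lowest. OBE2 was not called either (log2 fold change −0.34 ± 0.15 SE, edgeR FDR 0.193). bpcV replicate 1 also had the lowest ULT2 count (7) and stood at one end of the second principal component.

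KNU, a zinc finger gene that shuts off WUS as flowers form their carpels, had 0 counts in each bpcV library, against 1, 2 and 9 counts in the WT libraries. It did not pass the filter on low counts and was not tested.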
